A study of Caenorhabditis elegans with 12 samples.

Results

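Gonads of fertile F2 animals homozygous for *set-2*(*bn129*) were compared with gonads of their P0 heterozygous ancestors. The P0 animals carried *set-2*(*bn129*) over the balancer *qC1*(*qIs26*), called *qC1* below. The comparison uses every sample titled as F2 fertile or as P0, 3 of each, and so 6 of the 12 samples of the series. The other samples are F4 fertile and F4 sterile gonads, which entered the fit only to share its estimate of the spread. All animals belonged to *C. elegans* strain PFR541, were raised at 25°C and were dissected on day 1 of adulthood. The balanced strain was moved to 25°C in the generation before the experiment. F2 animals thus had more generations at 25°C behind them than P0 animals. An effect of these generations and one of *set-2* cannot be told apart, as no F2 heterozygotes were sampled. Each of 3 lineages contributed 1 F2 fertile and 1 P0 sample, each a pool of gonad arms, and the replicate number in the labels was read as the lineage. Values of single samples follow the order of lineages 1, 2 and 3. The F2 animals descend from homozygous F1 mothers, which were not profiled, and animals were scored as fertile when they had progeny. P0 animals differ from F2 animals both in the second copy of *set-2* and in the whole *qC1* chromosome III. An effect of the balancer and one of *set-2* therefore cannot be told apart. This holds most directly for genes of chromosome III, but also for genes elsewhere, which the balancer could reach indirectly. Gonad arms were severed at the bend during dissection, and RNA was measured from many cells at once. Fewer cells of a type and less RNA per cell therefore cannot be told apart either.

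In the worm's SET1/COMPASS complex, SET-2 is the enzyme that adds methyl groups to lysine 4 of histone H3, a mark of active promoters. In the germline the complex is required for the bulk of this mark, and animals without it become sterile over generations at high temperature. The X chromosomes of the hermaphrodite are largely silent in mitotic and early meiotic germ cells and become active late in oogenesis, so the X carries few of the genes that are highly expressed in the germline.

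Read totals on genes were 7119256, 8092265 and 4730940 in the F2 fertile samples, against 7728189, 3456068 and 4348260 in the P0 samples. Levels are given as CPM, the usual unit of counts relative to the library's TMM-scaled total, and 3 counts, taken as the floor of detection, came to between 0.380 and 0.895 CPM. Error from amplification is not part of that floor. Among these samples the libraries' names have 2 prefixes, which the F2 fertile and P0 samples of lineages 1 and 3 share within a lineage and those of lineage 2 do not. Of 11 genes that mark germ cells and oocytes, none rose and 1 fell, and their summed level was 11494 to 13251 CPM in F2 fertile gonads, against 12044 to 13361 CPM in P0 gonads. Sperm markers were near the floor, at a summed 1.80 to 3.10 CPM in F2 fertile gonads and 0.720 to 2.11 CPM in P0 gonads.

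*set-2* itself (C26E6.9, chromosome III, 4922391 to 4930170 in WS220) had 141, 142 and 157 CPM in F2 fertile gonads, against 186, 197 and 194 CPM in P0 gonads. The groups did not overlap. The log2 fold change was -0.39 (standard error 0.07, edgeR adjusted p = 0.0042), so reads on the gene were reduced but still counted in homozygotes. In a fit without lineage 2 the adjusted p was 0.089. Of 4 further genes linked to the balancer by background knowledge, *glp-1*, the Notch receptor that keeps germ cells proliferating and is mutated on *qC1*, had 589, 551 and 581 CPM in F2 fertile gonads, against 383, 403 and 383 CPM in P0 gonads. Its log2 fold change was 0.56 (standard error 0.08, edgeR adjusted p = 0.0011). *dpy-19*, the other gene mutated on *qC1*, had 5.63, 5.57 and 3.82 CPM in F2 fertile gonads, against 2.81, 3.28 and 3.60 CPM in P0 gonads. The difference did not pass the test (edgeR adjusted p = 0.22). *rol-6*, a cuticle collagen used as a marker gene on a form of *qC1*, had at most 0.225 CPM in F2 fertile gonads, against 0.562, 1.19 and 1.68 CPM in P0 gonads, and was too low to be tested. *lag-2*, a Notch ligand whose promoter drives the fluorescent marker of that form, was also too low, with at most 1.35 CPM in F2 fertile gonads and 0.983 CPM in P0 gonads.

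The first fertile homozygous generation sampled showed mostly higher transcripts. Of 8746 genes tested, 665 (7.60%) were higher and 116 (1.33%) were lower in F2 fertile gonads at an edgeR adjusted p under 0.05. The higher genes moved by much more than the lower ones. Their median log2 fold change was 1.28 and 481 of them changed by more than 1, against -0.46 and 21 genes for the lower set. They were also less abundant, with a median P0 level of 7.61 CPM, against 90.1 CPM for the lower set and 34.7 CPM for all tested genes. Protein-coding genes made up 653 of the higher and 111 of the lower genes, and 6 pseudogenes rose and 5 fell. DESeq2's Wald test called 709 higher and 232 lower genes, and edgeR with RLE scaling 599 and 185. Fits that omitted a single library called as few as 256 higher genes (P0 sample of lineage 2 omitted) and as many as 506, and for lower genes as few as 33 (F2 fertile sample of lineage 2 omitted) and as many as 176 (that of lineage 3 omitted). Omitting the F2 fertile samples of lineages 1 and 2 gave 441 and 326 higher genes, and omitting the P0 sample of lineage 3 gave 333. For lower genes the counts were 61 when the F2 fertile sample of lineage 1 was omitted, and 55 and 58 when the P0 samples of lineages 2 and 3 were.

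The largest rises among genes that reached 5 CPM included several X-linked genes as well as autosomal ones. *rgs-6*, which encodes a regulator of G protein signalling, had 4.51, 7.09 and 5.62 CPM in F2 fertile gonads, against 0.281, 0 and 0 CPM in P0 gonads. It had 113 counts in F2 fertile and 2 in P0 gonads, a ratio of 42.5 at equal depth with an exact 95% interval of 11.5 to 355 for counting error. *eef-1A.2*, an X-linked second gene for translation elongation factor 1A, had 332, 670.3 and 375 CPM in F2 fertile gonads, against 61.1, 54.6 and 51.8 CPM in P0 gonads. The log2 fold change was 3.03 (standard error 0.31, edgeR adjusted p = 0.00013). Its autosomal partner *eef-1A.1* supplied far more reads, 12512, 13068 and 14340.0 CPM in F2 fertile gonads against 16584, 15035 and 15119.5 CPM in P0 gonads, and did not pass the test (edgeR adjusted p = 0.29). The same arrangement held for *rpl-11.2*, an X-linked gene for a protein of the large ribosomal subunit, with 153, 293 and 110.1 CPM in F2 fertile gonads and 23.3, 7.16 and 13.2 CPM in P0 gonads. Its log2 fold change was 3.55 (standard error 0.94, edgeR adjusted p = 0.031). The autosomal copy *rpl-11.1* had 1983 ± 117 CPM in F2 fertile gonads and 2337 ± 255 CPM in P0 gonads (SD, n = 3 each, edgeR adjusted p = 0.32). These pairs are near-identical in sequence, so reads could be split between their members only where they differ. The call of *rpl-11.2* was lost without either F2 fertile sample of lineages 1 and 2 or any P0 sample, with adjusted p-values of 0.059, 0.12, 0.075, 0.13 and 0.11 in that order.

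*puf-9*, an X-linked Pumilio-family repressor of translation, had 107, 236 and 52.3 CPM in F2 fertile gonads, against 33.0, 16.4 and 16.3 CPM in P0 gonads (log2 fold change 2.52, standard error 0.45, edgeR adjusted p = 0.0038). The F2 fertile sample of lineage 2 stood well above the other two, and the groups did not overlap. *ceh-43*, a homeodomain protein of the Distal-less family, had 6.62, 6.96 and 6.07 CPM in F2 fertile gonads, against 0.281, 1.49 and 1.20 CPM in P0 gonads. *ztf-12*, a zinc finger protein, had 26.9, 24.3 and 22.7 CPM in F2 fertile gonads, against 5.48, 2.98 and 3.84 CPM in P0 gonads. The ratios of *ceh-43* were 3.19, 1.91 and 1.95 on the log2 scale in lineages 1, 2 and 3, and those of *ztf-12* were 2.20, 2.83 and 2.42. The cadherin gene *cdh-1* had 17.5, 25.4 and 25.8 CPM in F2 fertile gonads, against 4.49, 3.58 and 3.60 CPM in P0 gonads. *cutl-23*, a cuticlin-like gene, reached 5.82 ± 0.470 CPM in F2 fertile gonads and 0.626 ± 0.0829 CPM in P0 gonads (SD, n = 3 each). The log2 fold changes of *ceh-43*, *ztf-12*, *cdh-1* and *cutl-23* lay between 2.44 and 2.70, and every edgeR adjusted p stayed under 0.05 when any 1 library was left out. K09F5.6 on X, R03H10.6 on II and Y69A2AR.31 on IV were also among the 12 largest rises, with log2 fold changes of 2.79, 3.50 and 2.57. R03H10.6 rested on lineage 2, with 5.77, 30.5 and 4.94 CPM in F2 fertile gonads against 1.12, 1.49 and 0.240 CPM in P0 gonads. Its edgeR adjusted p of 0.029 became 0.17 without the F2 fertile sample of lineage 2 and 0.099, 0.091 and 0.11 without each P0 sample.

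**Figure D1:**
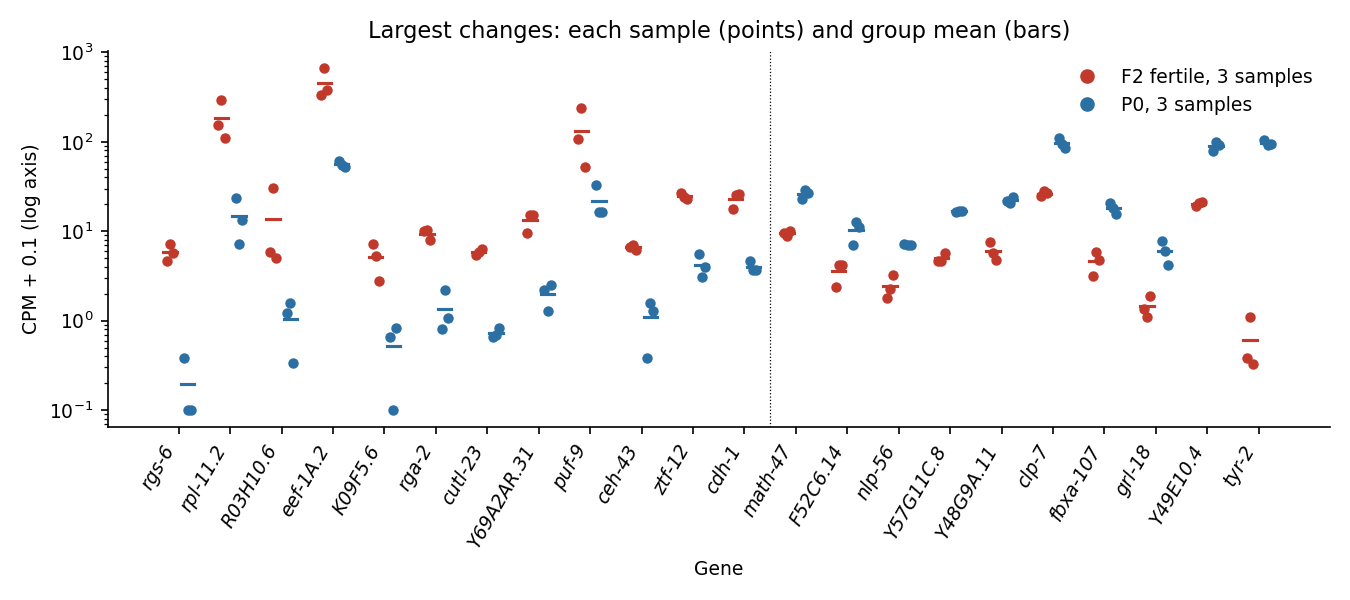
Level of the 12 genes with the largest rise (left of the dotted line) and the 10 with the largest fall (right) in each sample, as CPM plus 0.1 on a log axis, with F2 fertile samples in red and P0 samples in blue, and short bars for group means. The groups do not overlap for any of these 22 genes, and *tyr-2* has the widest gap, at most 1.01 CPM in F2 fertile gonads against at least 90.9 CPM in P0 gonads.

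Falls were fewer and, apart from *tyr-2*, smaller. *tyr-2* (K08E3.1, chromosome III, 13744121 to 13747186 in WS220), which encodes a tyrosinase, a copper enzyme family of pigment and cuticle chemistry, had 0.282, 1.01 and 0.225 CPM in F2 fertile gonads, against 104, 90.9 and 94.5 CPM in P0 gonads. The log2 fold change was -6.79 (standard error 0.40, edgeR adjusted p = 1.6e-06). Y49E10.4, also on chromosome III, had 19.01, 20.6 and 21.1 CPM in F2 fertile gonads, against 79.6, 99.3 and 91.6 CPM in P0 gonads. *clp-7*, a calpain-type protease gene on IV, had 24.4, 28.0 and 26.5 CPM in F2 fertile gonads, against 111, 95.4 and 86.1 CPM in P0 gonads (log2 fold change -1.88, standard error 0.13, edgeR adjusted p = 2.5e-06). The F-box gene *fbxa-107* and the MATH-domain gene *math-47*, both of families that serve as adaptors of ubiquitin ligases, had log2 fold changes of -1.92 and -1.45. Y48G9A.11 and Y57G11C.8 fell by 1.84 and 1.71 on the log2 scale. The calls of the ground-like gene *grl-18*, the neuropeptide-like gene *nlp-56* and F52C6.14 (edgeR adjusted p = 0.015, 0.019 and 0.031) were each lost in at least 4 fits with a library left out, with adjusted p-values up to 0.096, 0.092 and 0.12. For *grl-18* these were the F2 fertile and P0 samples of lineages 1 and 2, for *nlp-56* these and the P0 sample of lineage 3, and for F52C6.14 the F2 fertile samples of lineages 1 and 2 and the P0 samples of lineages 2 and 3.

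Among abundant transcripts the differences were small but even. Of the 6 most abundant lower genes, *fln-1*, a filamin that crosslinks actin and is known from the spermatheca, had 1134, 1055 and 1023 CPM in F2 fertile gonads, against 1582, 1586 and 1507 CPM in P0 gonads (log2 fold change -0.54, standard error 0.09, edgeR adjusted p = 0.0033). *maph-1.2*, a microtubule-associated protein gene, had 515, 491 and 636 CPM in F2 fertile gonads, against 825, 842 and 809 CPM in P0 gonads, and Y57A10A.31 had 298, 336 and 392.4 CPM in F2 fertile gonads, against 558, 568 and 559 CPM in P0 gonads. *pgl-3*, a core protein of germline P granules, had 382, 384 and 415 CPM in F2 fertile gonads, against 481, 497 and 472 CPM in P0 gonads (log2 fold change -0.30, edgeR adjusted p = 0.034). R02F2.1 and *xpc-1*, a DNA damage recognition gene, had log2 fold changes of -0.31 and -0.48. The calls of *pgl-3*, R02F2.1 and *xpc-1* were lost without either F2 fertile sample of lineages 1 and 2, with adjusted p-values of up to 0.15, 0.12 and 0.080, and without 2, 2 and 1 of the P0 samples.

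Of the 6 most abundant higher genes, *glp-1* kept its call in every fit. W07E11.1 on X had 510.3, 649 and 505 CPM in F2 fertile gonads, against 289.8, 216 and 258 CPM in P0 gonads (log2 fold change 1.12, standard error 0.22, edgeR adjusted p = 0.0064, and 0.055 without the P0 sample of lineage 2). The ABC transporter gene *mrp-4* on X had a log2 fold change of 0.35 (edgeR adjusted p = 0.018, and 0.072 when no filter on low counts was used). *daf-2*, the insulin receptor, had 414, 395 and 427 CPM in F2 fertile gonads and 351, 344 and 334 CPM in P0 gonads, a log2 fold change of 0.27 (edgeR adjusted p = 0.046). Its call was lost with RLE scaling (0.086), DESeq2 (0.087), a replicate block (0.054), no filter on low counts (0.47) and any library left out (0.088 to 0.33). *dab-1*, an endocytic adaptor, and *ech-1.2*, an enzyme of mitochondrial fatty acid oxidation, had log2 fold changes of 0.33 and 0.30 and also lost their calls without any 1 library, at adjusted p-values of 0.056 to 0.27 and 0.080 to 0.25. That of *ech-1.2* was lost with RLE scaling (0.086) and DESeq2 (0.083) as well. The call of *mrp-4* was lost without the F2 fertile sample of lineage 3 or any P0 sample, with adjusted p-values up to 0.21.

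The X chromosome differed most from P0. It held 971 of the tested genes, of which 294 (30.3%) rose and 0 fell, with 5 X-linked genes lower at an unadjusted p under 0.05. DESeq2 called 0 lower, and the prefix covariate or a fit with no filter on low counts called 2. Thus 11.1% of the tested genes supplied 44.2% of the rises. The median log2 fold change was 0.78 on X and 0.01 on the autosomes, and 883 X-linked genes (90.9%) had a positive value, against 52.1% of autosomal genes. All F2 fertile samples lay above all P0 samples for 537 X-linked genes and below them for 15, while over all tested genes these groups comprised 21.1% and 10.7%. Reads on X made up 2.48%, 2.98% and 2.28% of all scaled counts in F2 fertile gonads, against 1.67%, 1.49% and 1.54% in P0 gonads. With 3 samples against 3 the two-sided exact permutation test cannot go below p = 0.1, the value it gave for X (0.15 after Benjamini-Hochberg adjustment over 6 chromosomes). Autosomal shares moved by at most 0.540 percentage points, that of chromosome IV. X-linked rises numbered 132 when the P0 sample of lineage 2 was omitted, 157 when the F2 fertile sample of that lineage was, 163 when the P0 sample of lineage 3 was, and at most 240 in these fits.

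**Figure D2:**
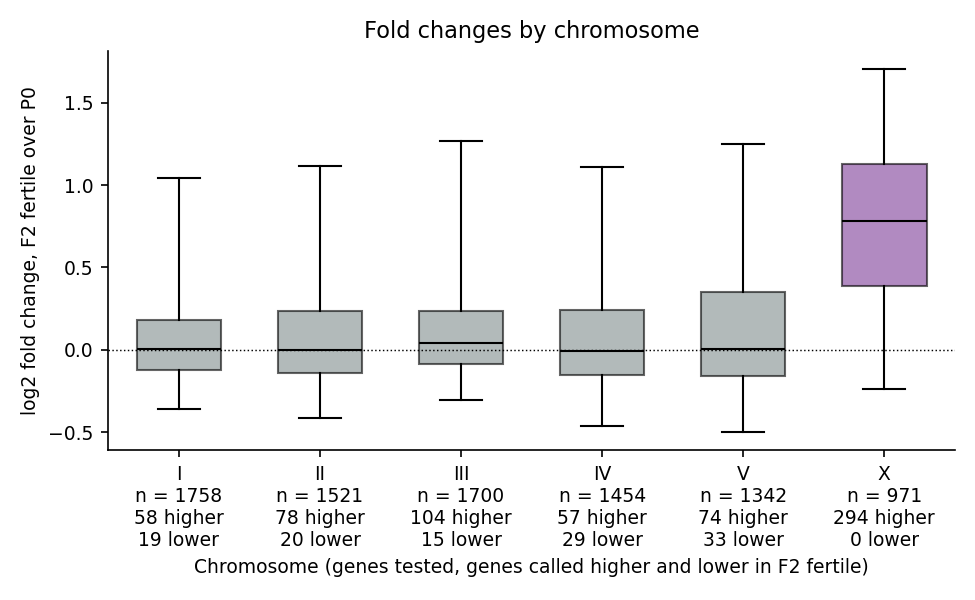
Log2 fold change of F2 fertile over P0 gonads for the tested genes of each chromosome, with boxes from the lower to the upper quartile, a line at the median and whiskers to the 5th and 95th percentiles. The lower quartile of X, 0.39, lies above the upper quartile of every autosome, while autosomal medians lie between -0.01 and 0.04.

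The rise extended along the X. In windows of 2 Mb the median log2 fold change was lowest at the left end, 0.36 over the first 2 Mb, and between 0.60 and 0.90 in every other window, and each window held at least 14 called genes. The first window also held 14 of the 15 X-linked genes whose F2 fertile samples all lay below the P0 samples. Among named X-linked genes, *vps-41* and *vps-52*, which act in tethering of vesicles to lysosomes and Golgi, had 43.2, 49.9 and 33.5 CPM and 39.8, 54.3 and 36.8 CPM in F2 fertile gonads, against 12.6, 6.26 and 9.35 CPM and 13.3, 7.16 and 6.48 CPM in P0 gonads. *vha-12*, a subunit of the vacuolar proton ATPase, had 91.4, 103 and 93.0 CPM in F2 fertile gonads, against 57.4, 41.1 and 47.7 CPM in P0 gonads. The *vps* class as a whole had 2 of 31 tested genes (6.45%) higher and 0 lower. The *vha* class had 2 of 20 (10%) higher and 1 (5%) lower. Over all genes these shares were 7.60% and 1.33%. In each of *vps-41*, *vps-52* and *vha-12* the lowest F2 fertile sample exceeded the highest P0 sample by a wide margin. The cyclin-dependent kinase gene *cdk-11.2* and the uncharacterized *tag-123*, both on X, had log2 fold changes of 1.52 and 1.97.

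The lineages, as read from the replicate numbers, differed in the size of their changes. Over all tested genes, 28.3% were above P0 in all 3 lineages and 16.6% below, by log2 ratios of CPM + 0.5, and the others, most of the genes, did not move one way throughout. The 665 higher and 116 lower genes all did, but a test over 3 samples a group selects genes for that agreement. The ratios of lineages 1 and 2 correlated with r = 0.51 across the 8746 genes, those of lineages 1 and 3 with 0.47 and those of lineages 2 and 3 with 0.57. Genes share their libraries and are not independent, so these values are descriptions. Changes beyond 1 on the log2 scale were frequent in single lineages but seldom shared. They numbered 717, 1539 and 748 upwards, with 246 genes in all 3 lineages of 1948 in any, and 178, 74 and 171 downwards, with 15 genes of 359. Lineage 2 carried the largest rise in 471 of the 665 higher genes and the largest fall in 61 of the 116 lower genes. The median ratio of X-linked genes was 0.57, 1.15 and 0.57 in lineages 1, 2 and 3, while autosomal medians were 0.03, 0.01 and 0.02. Lineage 2 is the lineage whose libraries differ in name prefix and whose P0 sample had the fewest reads, and the part of either in its larger changes was not tested. With both samples of lineage 2 left out, the 2 remaining lineages gave 94 higher genes, all of them among the 665, and 13 lower genes. The X-linked median was then 0.51 and the autosomal one -0.03, and 42 X-linked genes passed the test. With the library prefix as a covariate over all samples, 798 genes were higher and 199 lower.

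**Figure D3:**
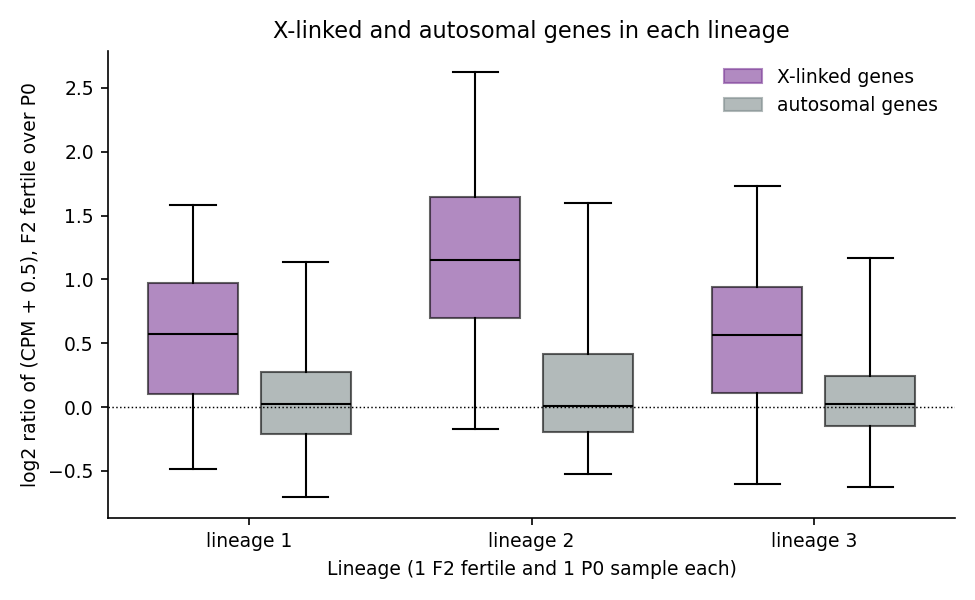
Log2 ratio of CPM + 0.5 in the F2 fertile over the P0 sample of each lineage, for X-linked and autosomal genes, drawn as boxes from the lower to the upper quartile with the median and with whiskers to the 5th and 95th percentiles. X-linked medians are 0.57, 1.15 and 0.57 in lineages 1, 2 and 3, each above the autosomal one beside it.

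Fold changes were set beside the level of expression, with genes divided by their mean CPM over all 12 samples. A gene that is higher in F2 or F4 gonads has a higher mean for that reason, so the classes are not independent of the change. Among autosomal genes under 5 CPM the median log2 fold change was 0.35 and 72.3% were positive, between 5 and 20 CPM it was 0.21, and between 20 and 100 CPM and above 100 CPM it was -0.04 and -0.03. The share of autosomal genes called higher was 4.95%, 11.9%, 4.40% and 1.46% in these 4 classes. For X-linked genes the medians were 0.59, 0.75, 0.92 and 1.03, and 34 of the 49 most abundant ones rose. The expression filter used all samples, so a gene scarce in P0 gonads could be tested because it was high in another group. The values of the lowest class include that selection on both kinds of chromosome.

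**Figure D4:**
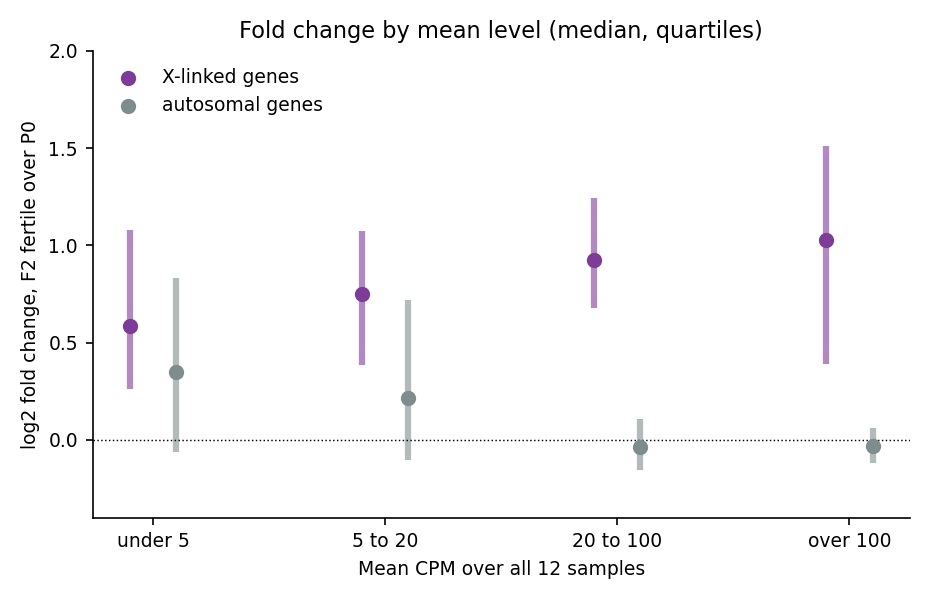
Median log2 fold change of F2 fertile over P0 gonads (points, with bars from the lower to the upper quartile) for X-linked and autosomal genes in 4 classes of mean CPM. Medians of X-linked genes lie between 0.59 and 1.03 in every class, and those of autosomal genes lie at 0.35 under 5 CPM and at -0.03 above 100 CPM.

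Chromosome III, the balanced one, held 104 higher and 15 lower genes among 1700 tested, 6.12% and 0.882%, and its median log2 fold change was 0.04. Both kinds of call were scattered. The lower genes included *set-2*, *tyr-2*, Y49E10.4 and Y48G9A.11, and the adjacent T24C4.5 and *ucr-2.3*, a subunit of mitochondrial complex III. The genes T24C4.5 and *ucr-2.3* are named here after their values were seen. *ucr-2.3* had 106, 129 and 108 CPM in F2 fertile gonads, against 239, 249 and 217 CPM in P0 gonads (log2 fold change -1.04, standard error 0.12, edgeR adjusted p = 0.00025). Within 100 kb of *tyr-2*, 14 other genes were tested, of which 0 fell and 1 rose, with log2 fold changes between -0.35 and 1.15. The count of lower genes on III was 28 with RLE scaling, 34 with DESeq2, 24 with lineage as a replicate block and between 8 and 31 when 1 library was left out (without the F2 fertile samples of lineages 2 and 3).

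Of 14 measured members of SET1/COMPASS and the H3K4 demethylases, 2 (14.3%, against 7.60% over all genes) rose and 1 (*set-2*, 7.14%, against 1.33%) fell. The median was 0.01. The partners of SET-2 lay close to P0, for example *wdr-5.1* with 126 ± 8.33 CPM in F2 fertile gonads and 115 ± 3.20 CPM in P0 gonads (SD, n = 3 each, edgeR adjusted p = 0.46) and *cfp-1* with 157 ± 4.39 and 146 ± 3.35 CPM (edgeR adjusted p = 0.47). The members that rose are X-linked. *utx-1*, a demethylase of lysine 27 that works with H3K4 methyltransferases, had 56.7, 82.6 and 33.9 CPM in F2 fertile gonads, against 18.4, 11.3 and 17.99 CPM in P0 gonads (log2 fold change 1.83, edgeR adjusted p = 0.0017). *lsd-1*, a H3K4 demethylase, had a log2 fold change of 0.74, and its edgeR adjusted p of 0.044 became 0.058 with RLE scaling, 0.054 with a replicate block and up to 0.19 without single libraries (either F2 fertile sample of lineages 1 and 2, or any P0 sample).

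Of the 12 genes of Polycomb repression, MES-4 and H3K36 methylation, 5 rose, also in every fit that left out at most 1 library, and 0 fell, against 7.60% and 1.33% over all genes. They were *sop-2*, *sor-1* and *sor-3*, which keep Hox genes off in somatic cells, the trithorax-type gene *lin-59*, and *jmjd-3.1*, a demethylase of the Polycomb mark. *sop-2* had 64.8, 62.9 and 70.5 CPM in F2 fertile gonads, against 20.2, 17.6 and 23.3 CPM in P0 gonads (log2 fold change 1.67, standard error 0.11, edgeR adjusted p = 1.6e-06). *lin-59* had 125, 145 and 111 CPM in F2 fertile gonads, against 45.4, 42.6 and 44.6 CPM in P0 gonads (log2 fold change 1.52, standard error 0.12, edgeR adjusted p = 1.1e-05). *sor-1* had 41.8, 42.4 and 29.7 CPM in F2 fertile gonads, against 11.9, 9.84 and 8.87 CPM in P0 gonads. *sor-3* and *jmjd-3.1* are X-linked, with log2 fold changes of 1.94 and 2.42. The germline regulators of the same list behaved otherwise. *mes-2*, *mes-3* and *mes-6*, which form the worm PRC2, and *mes-4*, a H3K36 methyltransferase, had log2 fold changes of -0.25, -0.26, -0.18 and -0.11 with edgeR adjusted p-values of 0.077, 0.074, 0.25 and 0.42. RLE scaling and DESeq2 called *mes-2* lower (adjusted p = 0.043 in each). *mes-3* had 102, 104 and 106 CPM in F2 fertile gonads, against 112, 129.7 and 132 CPM in P0 gonads.

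Of 12 genes of H3K9 methylation 1 rose (8.33%, close to the 7.60% over all genes), *set-6* on X, with 6.76, 8.23 and 6.29 CPM in F2 fertile gonads against 1.83, 0.298 and 1.20 CPM in P0 gonads. Of 13 genes of the DREAM complex and related synMuv B genes 2 (15.4%, against 7.60% over all genes) rose. They were the neighbouring X-linked *lin-15A* and *lin-15B*, and over all X-linked genes 30.3% rose. *lin-15B*, a THAP-domain repressor, had 133, 190.1 and 182 CPM in F2 fertile gonads, against 63.9, 60.8 and 55.9 CPM in P0 gonads (log2 fold change 1.47, standard error 0.29, edgeR adjusted p = 0.0074). The autosomal members of these lists had medians of -0.08 and -0.02. Of 12 dosage compensation genes, which set X expression in somatic cells of hermaphrodites, 3 (25%, against 7.60% over all genes) rose and 0 fell. Their median was 0.23. *sdc-3* on V had 36.7, 39.1 and 33.2 CPM in F2 fertile gonads, against 16.9, 15.8 and 21.3 CPM in P0 gonads, and *sdc-1* and *sex-1* on X had log2 fold changes of 0.86 and 0.97. Each fit without 1 library called between 0 and 2 of the 3. The highest adjusted p-values were 0.059 for *sdc-3* (P0 samples of lineages 1 and 2), 0.064 for *sdc-1* (F2 fertile sample of lineage 2, P0 samples of lineages 2 and 3) and 0.19 for *sex-1* (any sample).

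Of the germline programmes, those of oocytes, early embryos and eggshell were close to P0 in level. The summed lists of meiotic, P granule and Argonaute genes, given below, were lower in every F2 fertile sample than in any P0 sample. Of 23 genes for RNA-binding proteins of oocytes and early embryos 0 rose and 0 fell at the threshold, with a median of 0.03, while 1 was higher and 2 were lower at an unadjusted p under 0.05 and DESeq2 called 1 lower. *oma-1*, needed for oocyte maturation, had 448 ± 14.1 CPM in F2 fertile gonads and 385 ± 8.75 CPM in P0 gonads (SD, n = 3 each, edgeR adjusted p = 0.25). *gld-1*, a repressor of translation in meiotic cells, had 1376 ± 13.1 CPM in F2 fertile gonads and 1489.9 ± 78.8 CPM in P0 gonads (edgeR adjusted p = 0.51), and *rme-2*, the yolk receptor, had 2213 ± 161 and 2391 ± 73.1 CPM (edgeR adjusted p = 0.65). Of 19 eggshell genes 1 rose, the phosphatase gene *ptp-2* (log2 fold change 0.27, edgeR adjusted p = 0.029), which DESeq2 did not call (0.078) and which was lost without any 1 library (up to 0.26). The median of this list was 0.00. Of 32 proteasome genes 0 rose and 0 fell, by edgeR and by DESeq2, with 1 higher at an unadjusted p under 0.05 and a median of -0.01.

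Meiotic genes leaned downward, mostly in lineages 2 and 3. Of 50 genes of pairing, synapsis and recombination, all autosomal, 0 rose and 3 (6%, against 1.49% over autosomal genes) fell. The median was -0.09, against 0.01 over autosomal genes, and -0.04 and -0.03 over those between 20 and 100 CPM and above 100 CPM. By lineage the median ratio of the list was -0.01, -0.16 and -0.12. The list summed to 6337 to 6766 CPM in F2 fertile gonads and 6851 to 7028 CPM in P0 gonads, without overlap. All F2 fertile samples lay below all P0 samples for 15 members (30%, against 11.8% over autosomal genes). They lay above for 4 (8%, against 16.9%). *dsb-1*, needed for meiotic double-strand breaks, had 66.6, 61.4 and 61.3 CPM in F2 fertile gonads, against 93.1, 98.7 and 106 CPM in P0 gonads (log2 fold change -0.65, standard error 0.12, edgeR adjusted p = 0.0060). *htp-3*, a protein of the meiotic chromosome axis, had 178, 147 and 167 CPM in F2 fertile gonads, against 217, 217 and 209 CPM in P0 gonads (log2 fold change -0.38, edgeR adjusted p = 0.012, and 0.080 without the F2 fertile sample of lineage 2). *plk-2*, a Polo kinase of pairing, had a log2 fold change of -0.32 (edgeR adjusted p = 0.043). It was lost without the F2 fertile samples of lineages 1 and 2 or any P0 sample, with values up to 0.20. RLE scaling gave 5 lower genes in this list, DESeq2 6, a replicate block 5, and fits with 1 library left out between 1 and 4. Among 25 regulators of germline stem cells and of entry into meiosis, *nos-2* and *mog-1* rose and *fbf-1* and *fem-3* fell. These are 8% in each direction, against 4.77% higher and 1.49% lower over autosomal genes. *mog-1*, a splicing helicase of the switch from sperm to oocytes, had 244, 229.6 and 249 CPM in F2 fertile gonads, against 165, 181 and 174 CPM in P0 gonads (log2 fold change 0.47, edgeR adjusted p = 0.0016). *fbf-1*, which keeps stem cells undifferentiated, had 97.2, 84.1 and 81.1 CPM in F2 fertile gonads, against 118, 117 and 115 CPM in P0 gonads (log2 fold change -0.42, edgeR adjusted p = 0.036). Its near-identical partner *fbf-2* had 92.8 ± 5.26 CPM in F2 fertile gonads and 116 ± 3.68 CPM in P0 gonads and did not pass (edgeR adjusted p = 0.062). The calls of *nos-2*, *fbf-1* and *fem-3* were each lost in 3 or more fits without 1 library, with adjusted p-values up to 0.15, 0.15 and 0.095.

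Of 22 P granule genes 3 (13.6%, against 7.60% over all genes) rose and 1 (4.55%, against 1.33%) fell, *pgl-3*, given above. The risers were all X-linked members of the *meg* family, which builds P granules in embryos. *meg-1* had 274, 274 and 268 CPM in F2 fertile gonads, against 165, 137 and 151 CPM in P0 gonads (log2 fold change 0.84, standard error 0.09, edgeR adjusted p = 0.00013). *meg-2* and *meg-3* had log2 fold changes of 1.14 and 0.82. The edgeR adjusted p of *meg-3*, 0.0076, became 0.059 without the P0 sample of lineage 2. The 18 autosomal members of the list had a median of -0.15. The whole list summed to 12728 to 14063 CPM in F2 fertile gonads and 14291 to 14746 CPM in P0 gonads, without overlap. All F2 fertile samples lay below all P0 samples for 8 members (36.4%, against 10.7% over all genes). They lay above for 4 (18.2%, against 21.1%). Of 35 Argonaute and small RNA amplification genes 4 (11.4%, against 7.60% over all genes) rose and 1 (2.86%, against 1.33%) fell. The list summed to 10270 to 11174 CPM in F2 fertile gonads and 11277 to 11666 CPM in P0 gonads, again without overlap. *vsra-1* on I, an Argonaute gene, had 167, 142 and 137 CPM in F2 fertile gonads, against 37.4, 32.8 and 32.1 CPM in P0 gonads (log2 fold change 2.11, standard error 0.18, edgeR adjusted p = 1.8e-05). The microRNA Argonaute *alg-1* and the nuclear Argonaute *nrde-3*, both on X, had log2 fold changes of 1.15 and 0.97, and *alg-2* on II one of 0.81. The helicase gene *mut-14* fell by 0.33 on the log2 scale. Of these, *alg-1* and *vsra-1* kept their calls without any 1 library. *nrde-3* reached an adjusted p of 0.052 without the P0 sample of lineage 2, *mut-14* 0.12 without the F2 fertile sample of lineage 2 and 0.065 without the P0 sample of that lineage, and *alg-2* up to 0.15 without the F2 fertile samples of lineages 2 and 3 or any P0 sample. RLE scaling and DESeq2 each called 3 lower genes in the Argonaute list.

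Some genes of somatic tissues rose, most of them from low levels. Of 85 neuronal genes listed, 34 were tested. Among these 7 (20.6%, against 7.60% over all genes) rose and 0 fell, with a median of 0.77. The expression filter used all samples, so a scarce member could be tested because it was high in F2 or F4 gonads. The same limit holds for the other lists below. *nrx-1*, the neurexin of synapses, had 18.7, 14.1 and 11.7 CPM in F2 fertile gonads, against 3.51, 2.98 and 3.60 CPM in P0 gonads (log2 fold change 2.04, standard error 0.22, edgeR adjusted p = 0.00018). *unc-14*, an adaptor of axonal transport, had 25.8, 23.7 and 19.5 CPM in F2 fertile gonads, against 8.85, 9.84 and 9.83 CPM in P0 gonads. *daf-19*, the RFX factor of ciliated neurons, had 22.5, 29.4 and 16.2 CPM in F2 fertile gonads, against 10.1, 5.96 and 9.11 CPM in P0 gonads, and *syd-2*, a liprin of the presynaptic zone, had a log2 fold change of 1.34. The defining neuronal markers *rab-3* and *rgef-1* were at or below 0.720 CPM in every sample and not tested, and *snb-1*, the synaptobrevin, had a log2 fold change of 0.00. Of 5 neuronal markers 1 rose, *unc-119*, with 3.38, 6.96 and 4.04 CPM in F2 fertile gonads against 1.69, 0.895 and 1.44 CPM in P0 gonads. Its edgeR adjusted p of 0.014 became 0.088 without the F2 fertile sample of lineage 2, 0.082 without the P0 sample of that lineage and 0.062 without that of lineage 3. DESeq2 called 11 neuronal genes higher and the fit with no filter on low counts 13.

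Of 31 tested epidermal and cuticle genes 6 (19.4%, against 7.60% over all genes) rose and 1 (3.23%, against 1.33%) fell, with a median of 0.79. *noah-2*, a component of the apical matrix, had 6.90, 9.88 and 7.64 CPM in F2 fertile gonads, against 3.09, 2.09 and 1.68 CPM in P0 gonads (log2 fold change 1.66, edgeR adjusted p = 0.0026) and was the only riser of the list to keep its call without any 1 library. *nhr-25*, a nuclear receptor of epidermal cells, *dlg-1*, a protein of apical junctions, *mup-4*, *dpy-17* and *let-413* also rose, and fits without 1 library called between 1 and 3 members of the list, with adjusted p-values up to 0.078, 0.17, 0.16, 0.17 and 0.22 for these 5 genes in that order. *nhr-23*, a nuclear receptor of moulting, fell by 0.32 on the log2 scale (edgeR adjusted p = 0.046), but not without the F2 fertile samples of lineages 1 and 2 or any P0 sample (adjusted p up to 0.22). The collagens *col-10* and *dpy-7* were at or below 0.422 CPM in every sample, and *col-19* had 14.6, 37.98 and 7.64 CPM in F2 fertile gonads, against 12.4, 11.6 and 7.68 CPM in P0 gonads, where the groups overlapped. Of 45 muscle genes 2 (4.44%, against 7.60% over all genes) rose, *unc-68*, the ryanodine receptor, and *unc-112*, a kindlin of muscle attachments, and the median was 0.40. *unc-68* had 60.1, 56.5 and 45.2 CPM in F2 fertile gonads, against 19.7, 19.4 and 18.9 CPM in P0 gonads (log2 fold change 1.47, standard error 0.20, edgeR adjusted p = 0.00094), while the myosin gene *unc-54* had 47.2, 55.2 and 20.0 CPM in F2 fertile gonads and 50.8, 43.5 and 32.9 CPM in P0 gonads. The call of *unc-112* (edgeR adjusted p = 0.016) was lost without the F2 fertile sample of lineage 1 (0.069) or the P0 samples of lineages 2 and 3 (0.094 and 0.082).

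Of 25 tested intestinal genes 0 rose and 0 fell, by edgeR and by DESeq2, with 2 higher at an unadjusted p under 0.05 and a median of 0.11. *vit-2*, a yolk protein made in the intestine, had 1168, 1424 and 1123 CPM in F2 fertile gonads and 1152, 1299.8 and 1026 CPM in P0 gonads. The sums of the few defining markers of tissues next to the gonad overlapped between the groups, epidermal ones excepted. Muscle markers summed to 49.2 to 118 CPM in F2 fertile gonads and 57.1 to 92.6 CPM in P0 gonads, intestinal ones to 2617 to 3375 and 2412 to 3068 CPM, uterine ones to 14.8 to 60.8 and 20.4 to 58.4 CPM, and those of sheath and spermatheca to 29.7 to 49.0 and 38.9 to 56.3 CPM. Epidermal markers did not overlap, with 122 to 156 CPM in F2 fertile gonads and 105 to 121 CPM in P0 gonads, most of it from *lin-26*, which had 121, 118 and 115 CPM in F2 fertile gonads, against 108, 91.8 and 99.3 CPM in P0 gonads (log2 fold change 0.24, edgeR adjusted p = 0.33). The full lists differed more. The neuronal list summed to 1601 to 1734 CPM in F2 fertile gonads and 1393 to 1447 CPM in P0 gonads, and the epidermal list to 2531 to 2619.9 and 2236 to 2491 CPM. The summed list of sheath, spermatheca and distal tip was lower, at 2992 to 3165 and 3369 to 3501 CPM. In each lineage the fall of its member *fln-1*, given above, was larger than that of the sum. Of its 24 tested members 18 had a positive fold change. The muscle and intestinal lists overlapped. The part of such tissue in the rises was not tested. Of 24 genes of sheath, spermatheca and distal tip 1 (4.17%, against 7.60% over all genes) rose, *hlh-2*, the bHLH factor of somatic gonad cells. The list had 1 faller (4.17%, against 1.33%), *fln-1*, and a median of 0.26. *hlh-2* had 16.1, 15.4 and 20.4 CPM in F2 fertile gonads, against 7.72, 7.45 and 6.48 CPM in P0 gonads (log2 fold change 1.22, edgeR adjusted p = 0.0054). Of 5 tested genes of uterus and vulva 1 rose, the cadherin gene *cdh-3* (log2 fold change 1.65, edgeR adjusted p = 0.0040). Of 34 sperm genes found, 8 were tested and 1 rose, the myosin gene *spe-15* (log2 fold change 1.06, edgeR adjusted p = 0.0086, and 0.054 and 0.061 without the P0 samples of lineages 2 and 3).

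**Figure D5:**
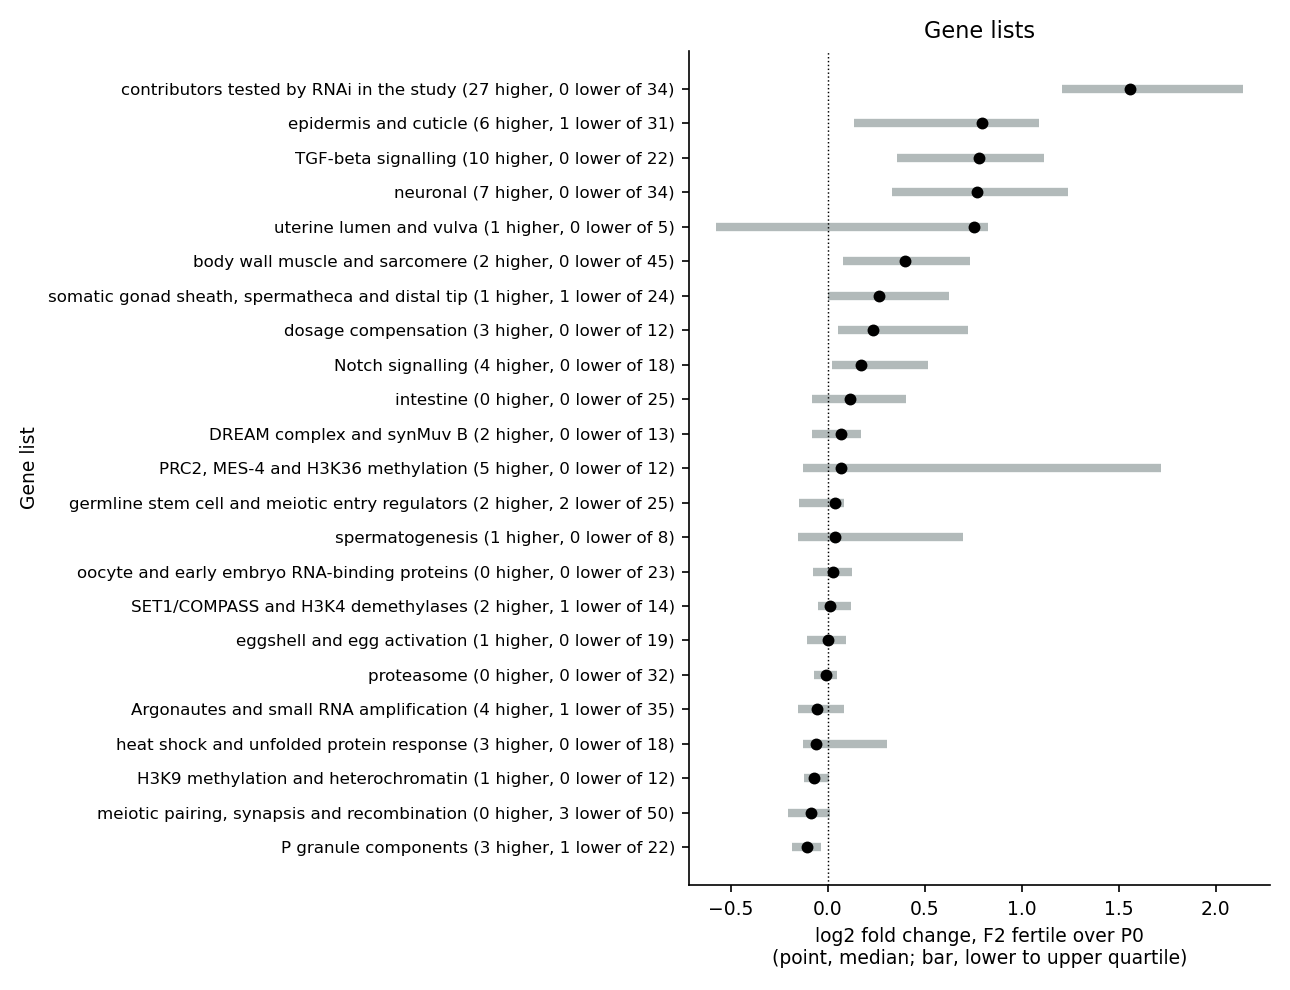
Median log2 fold change of F2 fertile over P0 gonads (points, with bars from the lower to the upper quartile) for the tested members of 23 gene lists, with the numbers of members called higher and lower beside each name. Medians of germline lists lie between -0.11 and 0.04, with P granule genes lowest. Neuronal, epidermal and TGF-beta genes lie near 0.8, and the genes that the study chose for RNAi, partly on these samples, lie at 1.56.

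TGF-beta signalling in the worm has a branch for body size and one for dauer formation, each with its own ligand and Smads. Of 22 tested members 10 (45.5%, against 7.60% over all genes) rose and 0 fell, and 21 had a positive fold change, with a median of 0.78. The study named several of these genes, *obr-3* among them, for their rise in a series that includes these samples. The count is therefore not independent evidence. The 15 autosomal members had a median of 0.80 and 7 of them rose. In the body size branch *sma-4*, a co-Smad, had 4.08, 7.60 and 4.94 CPM in F2 fertile gonads, against 0.843, 1.19 and 0.480 CPM in P0 gonads (log2 fold change 2.37, standard error 0.42, edgeR adjusted p = 0.0037). *sma-3*, a Smad, *sma-9*, a zinc finger cofactor, and *sma-10*, a membrane protein that aids the receptors, had log2 fold changes of 2.07, 0.73 and 1.52. In the dauer branch *daf-1*, a type I receptor, had 30.6, 35.96 and 31.7 CPM in F2 fertile gonads, against 18.5, 13.7 and 16.8 CPM in P0 gonads (log2 fold change 0.97, standard error 0.16, edgeR adjusted p = 0.0024). The Smads *daf-3* and *daf-14* and the Sno/Ski factor *daf-5* had log2 fold changes of 0.88, 1.96 and 0.80. The type II receptor *daf-4*, which is not particular to this branch, had one of 0.76. *obr-3*, an oxysterol-binding protein gene on X, had 12.2, 16.6 and 16.8 CPM in F2 fertile gonads, against 4.21, 5.37 and 5.04 CPM in P0 gonads. The ligand gene *dbl-1* was at or below 0.480 CPM in every sample, and *daf-7* had 5.63, 5.70 and 5.84 CPM in F2 fertile gonads and 7.02, 3.58 and 4.80 CPM in P0 gonads. Several calls lay near the threshold. RLE scaling called 7 members, DESeq2 9 and a replicate block 8, without 1 library between 3 and 6 passed, and with lineages 1 and 3 only 1 passed. *sma-4*, *daf-1* and *obr-3* passed in each of these fits other than that with lineages 1 and 3, where at most 1 of them did. Each of the other 7 genes lost its call without at least 2 of the libraries, with adjusted p-values up to 0.21.

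In the Notch list 4 of 18 tested members (22.2%, against 7.60% over all genes) rose and 0 fell, with a median of 0.17. Apart from *glp-1* these were *epn-1*, the epsin that aids ligand uptake, *adm-4*, a protease that cleaves the receptor, both on X, and *sel-8*, a nuclear coactivator on III. *epn-1* had 134, 228 and 204 CPM in F2 fertile gonads, against 79.5, 49.8 and 66.4 CPM in P0 gonads (log2 fold change 1.51, standard error 0.21, edgeR adjusted p = 0.00089). *sel-8* and *adm-4* had log2 fold changes of 0.40 and 0.93 and adjusted p-values of up to 0.12 and 0.13 without single libraries, for both genes those of F2 fertile lineage 2 and of P0 lineages 2 and 3, for *sel-8* also F2 fertile lineage 3 and for *adm-4* also F2 fertile lineage 1. Of 18 genes of heat shock and the unfolded protein response 3 (16.7%, against 7.60% over all genes) rose, all X-linked, and 0 fell. *hsp-3*, a chaperone of the endoplasmic reticulum, had 377 ± 18.9 CPM in F2 fertile gonads and 157 ± 34.7 CPM in P0 gonads (SD, n = 3 each, log2 fold change 1.25, standard error 0.19, edgeR adjusted p = 0.0014), and the sensors *pek-1* and *atf-6* had log2 fold changes of 1.37 and 1.01. *atf-6* reached adjusted p-values of 0.058 and 0.061 without the P0 samples of lineages 2 and 3. Autosomal members had a median of -0.10, and *hsp-4*, the second chaperone of that compartment, had 546, 514 and 539 CPM in F2 fertile gonads and 641, 605 and 619 CPM in P0 gonads (edgeR adjusted p = 0.18). Of 34 tested genes that the study had examined by RNAi, 27 rose and 0 fell, with a median of 1.56. The study chose them partly on these samples, so their direction is not independent evidence.

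Among 73 gene classes with at least 10 tested members, 13 had a median above 0.3 and 0 had one below -0.3. Nuclear hormone receptors, a family much enlarged in the worm, had the highest median, 0.84 over 71 tested genes, of which 64 had a positive fold change. Scarce members of any class could be tested because they were high in F2 or F4 gonads, since the expression filter used all samples. For comparison, autosomal genes under 5 CPM had a median of 0.35, and 72.3% of them were positive. Of the 71 genes 13 (18.3%, against 7.60% over all genes) rose and 2 (2.82%, against 1.33%) fell. *nhr-48* on X had 44.6, 61.7 and 55.9 CPM in F2 fertile gonads, against 20.5, 21.2 and 19.9 CPM in P0 gonads, and *nhr-138* on IV had a log2 fold change of 1.57 (edgeR adjusted p = 0.0092, and 0.053 without the P0 sample of lineage 1). The fallers were *nhr-23* and *nhr-86*, which at 81.9 and 58.5 CPM in F2 fertile gonads, against 102 and 81.4 CPM in P0 gonads, were among the more abundant members. Of 23 tested homeobox genes of the *ceh* class 6 (26.1%, against 7.60% over all genes) were higher, 4 of them on X, and the median was 0.41. The higher ones included *ceh-39* on X with 53.4, 45.7 and 44.9 CPM in F2 fertile gonads, against 22.1, 16.7 and 22.3 CPM in P0 gonads. *ceh-39* acts as a counter of X chromosomes in the embryo. *ceh-58* on II had a log2 fold change of 1.55. In the *egl* class *egl-9*, the oxygen-sensing hydroxylase, had 17.7, 13.8 and 19.8 CPM in F2 fertile gonads, against 2.81, 5.37 and 5.28 CPM in P0 gonads (log2 fold change 1.90, standard error 0.34, edgeR adjusted p = 0.0039).

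Histone genes were divided by cluster. Of 34 tested, 7 (20.6%, against 7.60% over all genes) rose and 0 fell, with a median of 0.61. By lineage the median ratio of the class was -0.25, 1.36 and 0.52, so it was below 0 in lineage 1. Of the 7 risers 5 belonged to the *his-1* to *his-8* group on V. *his-2* had 91.2, 173 and 124 CPM in F2 fertile gonads, against 31.2, 28.3 and 30.2 CPM in P0 gonads (log2 fold change 2.10, standard error 0.39, edgeR adjusted p = 0.0048). *his-4* had 80.5, 133 and 84.7 CPM in F2 fertile gonads, against 28.0, 20.6 and 21.1 CPM in P0 gonads, and *his-6* and *his-1* had log2 fold changes of 1.87 and 1.99. The F2 fertile sample of lineage 2 was the highest for each. The abundant copies on IV did not move with them. *his-48* averaged 2254 CPM in F2 fertile gonads and 2579 CPM in P0 gonads (edgeR adjusted p = 0.54), and *his-59* 1793 and 1834 CPM (edgeR adjusted p = 0.92). Histone copies are nearly identical and only uniquely mapping reads were counted, so values of single copies are uncertain. The call of *his-1* was lost without the P0 sample of lineage 2 (adjusted p = 0.055).

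The class medians below 0 were small. The lowest were those of the *math* class, -0.22 over 12 genes with 1 lower, and of the kinesin class *klp*, -0.18 over 12 genes with 2 higher and 0 lower. Ribosomal proteins of the small subunit (*rps*) had a median of -0.13 over 31 genes, 28 of them with a negative fold change, with 0 calls by edgeR in either direction and 0 genes at an unadjusted p under 0.05. This lean came from lineage 1, where the median ratio was -0.55, against 0.14 and 0.07 in lineages 2 and 3. Translation initiation factors (*eif*) had one of -0.10 over 24 genes, also with 0 calls by edgeR, and 3 were lower at an unadjusted p under 0.05. The *fbxa* class of F-box genes had a median of -0.14 over 50 genes, and 3 (6%, against 1.33% over all genes) fell, *fbxa-107*, *fbxa-192* and *fbxa-210*. *fbxa-107* had 3.10, 5.70 and 4.72 CPM in F2 fertile gonads, against 20.5, 17.9 and 15.4 CPM in P0 gonads, and *fbxa-192* had 15.3, 24.6 and 15.7 CPM in F2 fertile gonads, against 40.2, 33.4 and 35.98 CPM in P0 gonads. The adjusted p of *fbxa-192* was 0.012, and 0.056 without the F2 fertile sample of lineage 1. That of *fbxa-210*, 0.050, was 0.22 without the F2 fertile sample of lineage 2, 0.065 without that of lineage 3, and 0.081 and 0.088 without the P0 samples of lineages 1 and 2. With RLE scaling the medians were -0.16 for *rps*, -0.14 for *eif* and -0.18 for *fbxa*.

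A further group of features had no read in P0 gonads and a few in F2 fertile gonads. Over all 45461 features of the count files, 231 had 0 counts in all P0 samples and at least 1 count in every F2 fertile sample, with a median of 5 counts, and 36 of them are X-linked. The reverse held for 34 features, and F2 fertile libraries together held 1.28 times as many counts. The features with the most counts were F08G5.3, with 21, 28 and 8 counts in F2 fertile gonads, the nuclear receptor gene *nhr-57*, with 15, 20 and 7, ZC21.10, with 11, 21 and 3, *ndx-1*, a Nudix hydrolase gene, with 6, 15 and 10, and the lectin gene *clec-48*, with 3, 17 and 1. All 3 P0 samples had 0 counts for each. Against a floor of 3 counts over the P0 group, F08G5.3 was at least 14.3-fold higher in F2 fertile gonads, *nhr-57* at least 10.5-fold and ZC21.10 at least 8.78-fold. The bounds were 7.78-fold higher for *ndx-1* and 5.27-fold higher for *clec-48*. F08G5.3, *nhr-57*, ZC21.10 and *ndx-1* passed the test (edgeR adjusted p = 0.0031, 0.0014, 0.037 and 0.0096) and *clec-48* was too low to be tested. These genes were picked for their 0 counts in P0 gonads and high counts in F2 fertile gonads. They could be tested only through reads in F2 or F4 gonads. Their direction, bounds and p-values are therefore not independent evidence of a rise. The call of ZC21.10 was lost without the F2 fertile samples of lineages 1 and 2 or any P0 sample, with adjusted p-values up to 0.12.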

How the data were processed

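Gonads were dissected, RNA was depleted of ribosomal RNA, and libraries were sequenced. The authors used TopHat2 and the WS220 transcriptome for alignment, retained unique alignments off ribosomal RNA, and deposited HTSeq counts per gene, which were used here. Their versions and the strand setting are not given in the sources used here, so reads of overlapping or antisense genes may not be told apart. A further deposited table holds DESeq2-normalized values with fold changes and p-values, which were not used, and gene names and positions in WS220, which were. In the 12 samples, 8.23% to 14.4% of reads fell in no gene and were left out, as were ambiguous reads (1.76% to 2.24%).

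Counts of all 12 samples were fitted with edgeR 4.0.16 (R 4.3.3), with TMM scaling, filterByExpr and the quasi-likelihood test. F2 fertile minus P0 was tested over 8746 genes, with Benjamini-Hochberg adjustment and a threshold of 0.05. Standard errors are the absolute log2 fold change over the root of F. DESeq2 1.42.0, RLE scaling, no filter, the 6 samples alone, lineage as a block, the library prefix as a covariate, other prior counts and each sample left out were alternatives. A fit without lineage 2 was added after seeing the data. Of 200 genes changed in simulated counts of 8746 genes, 69.5% were recovered, 58.8% of 2-fold and 79.6% of 4-fold changes, with 4.14% of calls false.

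The labels number the replicates of each group, and that number was read as the lineage, which no label states. Deviations of same-numbered samples correlated with r = -0.0324, -0.1217 and 0.1367, and the highest r was 0.2443, between F2 fertile 2 and P0 1, so the data do not bear out that reading. P-values measure the spread between these samples. Named genes were the 12 largest rises and 10 largest falls with a group mean of at least 5 CPM, the 6 most abundant called genes of each direction, up to 4 called genes by p in each list and class, *set-2* and balancer genes, defining members of lists, and the 5 genes at 0 in P0 with most counts. The comparison, members and lists were chosen with earlier results of these data known. Of the listed features, 45443 of 45461 matched the annotation table.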

Additional observations from a re-analysis of the deposited data

How the results depend on the processing

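The count of higher genes stayed within 1.5 times of 665 in every fit that kept all 6 samples compared. That of lower genes, 116, was 185 with RLE scaling, 232 with DESeq2, 208 with no filter on low counts, 258 with only the 6 samples compared and 199 with the library prefix as a covariate. The share of called genes that were higher was 85.1%, against 76.4% with RLE scaling and 75.3% with DESeq2. With lineage as a replicate block 711 genes were higher and 159 lower. Lower genes of chromosome III, 15, numbered 28, 34, 28, 38 and 24 in those 5 fits and 24 with the replicate block. With lineages 1 and 3 only, a choice made after seeing the data, 94 genes were higher, 13 lower, 42 X-linked genes higher and 4 genes of III lower, and *set-2* had a log2 fold change of -0.40 that did not pass the test. Leaving out 1 library gave 256 to 506 higher, 33 to 176 lower, 132 to 240 X-linked higher and 8 to 31 lower genes of III. Of 193 called genes among those listed, 156 passed in all 6 fits that kept the samples compared, 90 in all 6 fits without 1 library, and 147 were lost with lineages 1 and 3 only. No direction reversed in the alternatives run for named genes. The smaller depth of the P0 sample of lineage 2, 3456068 counts, limits the low genes.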
